A study of Mus musculus with 12 samples.

Results

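Immediate-early genes are transcribed within minutes of a growth signal, without new protein synthesis, and many encode transcription factors whose own mRNA is short-lived. The 7 genes described here are Egr1, Fos, Fosl1, Jun, Junb, Ier2 and Btg2. They were chosen by symbol, with earlier results of these data known, and every probe set annotated to a single one of these symbols was taken. This gave 10 probe sets of the 34945 with 1 gene symbol, and 7 of the 18193 genes those stand for. Serum and other signals reach these genes mainly through the ERK, JNK and p38 kinases, which act on SRF with its ETS-family partners, on CREB and on Jun itself. Jun and Fos proteins pair to form AP-1, which binds target genes of adhesion, migration and proliferation, while Egr1 is a zinc finger factor. In embryonic stem cells ERK signalling is known for favouring exit from self-renewal.

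RNA was measured on Affymetrix arrays in mouse embryonic stem cells that were Tcf3+/+ (wild type) or Tcf3-/- (knockout). Tcf3 is the older name of Tcf7l1, a Tcf/Lef-family DNA-binding protein that acts largely as a repressor and is a partner of beta-catenin. Cells of all 4 groups grew on gelatin without feeders in medium with 15% serum and Lif at 1000 U/ml, and each genotype was kept in control medium or given 50 ng/ml recombinant Wnt3a for 24 h. Each group had 3 arrays, 12 in all. The labels do not say how many clones stand behind a genotype, nor whether the replicates were separate cultures. The p-values therefore reflect only variation among these arrays, and that variation may be technical. All groups had serum throughout, so every level below is one of serum-grown cells and not of an acute stimulation, and there is 1 time point.

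Values are deposited intensities on the log2 scale, and each change is one group mean minus another, given with its standard error (SE) from limma. Adjusted p-values are limma's, adjusted by the Benjamini-Hochberg method over 13811 genes, and a gene was called below 0.05. With no detection calls, an intensity of 47.2 (5.56 on the log2 scale) served as a floor, and a fold against a group below it is written as at least N-fold. All 10 probe sets passed the filter on low values, which asked for at least 3 arrays above that floor. The arrays measured RNA and not the proteins or their phosphorylation.

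Several properties of the arrays moved with the groups. The Tcf7l1 probe set had group means of 10.85 and 9.47 in wild-type and knockout control cells, and of 10.37 and 9.10 with Wnt3a, so it was lower in the knockout arrays but well above the floor. All 10 embryonic stem cell markers were above the floor on every array, and their summed intensity was 82035 to 88112 in wild-type control, 103885 to 105730 in knockout control, 96098 to 102571 in wild-type Wnt3a and 106241 to 112035 in knockout Wnt3a arrays. Of these 10, 7 rose and 1 fell in knockout control cells, and 4 rose and 2 fell in knockout cells in Wnt3a medium. With Wnt3a, 6 rose and 2 fell in wild-type cells, and 2 rose and 2 fell in knockout cells. All-gene shares called higher and lower were 19.9% and 22.3% in knockout control cells, and 13.2% and 14.7% in Wnt3a medium. They were 18.9% and 22.6% with Wnt3a in wild-type cells, and 13.3% and 14.7% in knockout cells. Each marker count in this paragraph is to be read beside those shares. Summed intensity of 10 trophectoderm markers was 22396 to 35704 in wild-type and 3315 to 3738 in knockout control arrays, and 18204 to 21710 against 2929 to 3185 with Wnt3a, with Elf5 under the floor everywhere. Of 9 of them tested, 0 rose and 5 fell in knockout control cells, and 1 rose and 6 fell in knockout cells with Wnt3a. With Wnt3a, 0 rose and 3 fell in wild-type cells, and 0 rose and 1 fell in knockout cells. The list includes the keratin genes Krt18, Krt8 and Krt7, which had its largest called falls in knockout control cells, where Eomes did not pass. A sum of intensities weighs bright genes most, and the part of each gene in it was not tested. Summed intensity of 12 fibroblast and feeder markers was 1297 to 1433, 1748 to 1853, 1654 to 1856 and 1689 to 1742 in wild-type control, knockout control, wild-type Wnt3a and knockout Wnt3a arrays, with Col3a1 and Lum under the floor everywhere. Of 10 fibroblast and feeder markers tested, 4 rose and 4 fell in knockout control cells (median -0.23), and 1 and 3 in Wnt3a medium. With Wnt3a, 3 rose and 2 fell in wild-type cells (median -0.23), and 0 and 0 in knockout cells. For the 10 endoderm markers the ranges of summed intensity were 1153 to 1405, 1126 to 4501, 1782 to 2418 and 2630 to 3090, with Afp under the floor everywhere. Of 9 tested, 2 rose and 0 fell in knockout control cells, and likewise with Wnt3a in wild-type cells. In the other 2 comparisons 0 were called. The dap poly-A control, added to RNA before labelling, averaged 3.99 and 3.89 on wild-type and knockout control arrays and 11.55 and 11.36 on Wnt3a arrays, so the Wnt3a effect and a difference in handling of the arrays cannot be told apart. The bioB hybridization control likewise averaged 6.40 and 6.61 against 9.04 and 9.19. The actin 3′ minus 5′ difference, a sign of RNA integrity, was 0.21 and 0.35 in wild-type and knockout control arrays and 0.26 and 0.38 with Wnt3a, and that of Gapdh was 0.01 and 0.02 against -0.09 and -0.06. The part of these markers and signs in the results below was not tested. In bulk RNA, fewer cells of a type and less RNA per cell cannot be told apart.

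Promoter sequence is shown for the 4 of the 7 genes found in the RefSeq table of build GRCm38.p6, to set the sequence upstream of each start beside the levels that follow. Each stretch is the 250 bases before the annotated start, 5′ to 3′ on the gene's strand, and capitals mark a motif match. Their positions are chr4:95052223-95052472 (minus strand) for Jun, chr8:84978749-84978998 (minus) for Junb, chr12:85473640-85473889 (plus) for Fos and chr1:134079156-134079405 (minus) for Btg2.
Jun: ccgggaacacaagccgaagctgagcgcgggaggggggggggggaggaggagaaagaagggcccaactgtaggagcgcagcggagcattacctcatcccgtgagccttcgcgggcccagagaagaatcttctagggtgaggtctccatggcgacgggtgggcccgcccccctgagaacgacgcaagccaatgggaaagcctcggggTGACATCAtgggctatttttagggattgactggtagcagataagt
Junb: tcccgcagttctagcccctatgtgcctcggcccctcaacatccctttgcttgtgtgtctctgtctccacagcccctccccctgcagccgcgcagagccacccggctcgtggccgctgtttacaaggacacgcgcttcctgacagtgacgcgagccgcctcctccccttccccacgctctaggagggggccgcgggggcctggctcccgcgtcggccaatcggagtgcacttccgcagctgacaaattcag
Fos: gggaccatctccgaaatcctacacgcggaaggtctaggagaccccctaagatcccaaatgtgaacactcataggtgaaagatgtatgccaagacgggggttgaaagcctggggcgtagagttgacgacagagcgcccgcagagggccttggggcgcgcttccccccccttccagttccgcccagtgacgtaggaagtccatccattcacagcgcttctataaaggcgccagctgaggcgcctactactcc
Btg2: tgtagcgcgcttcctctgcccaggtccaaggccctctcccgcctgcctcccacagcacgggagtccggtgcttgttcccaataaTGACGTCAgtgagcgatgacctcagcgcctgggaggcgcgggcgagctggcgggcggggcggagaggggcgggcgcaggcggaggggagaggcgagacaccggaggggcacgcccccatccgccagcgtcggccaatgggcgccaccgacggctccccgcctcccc
The Jun window held TGACATCA at bases 45 to 38 before the start, a motif added to the search after this sequence had been seen and found in 2.93% of 32851 windows of the same length. The Btg2 window held the CRE letters TGACGTCA at bases 166 to 159 before the start, found in 1.55% of windows. On both strands, none of the 4 windows held a CArG box (in 1.47% of windows), TGANTCA (6.75%), the Egr motif GCGTGGGCG (0.536%), the Tcf/Lef letters CTTTGAT (3.21%) or CTTTGTT (5.03%), or the ETS motif CCGGAAGT (2.88%). These are matches of letters in a short window and not measured binding. A site farther upstream than 250 bases, or with other letters, would not be found. The search therefore cannot show that a gene lacks such a site.

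Egr1 stood apart from the other 6 genes: it was higher without Tcf3, and most of the others were lower. In wild-type control cells its 3 arrays read 9.92, 10.12 and 10.04, and in knockout control cells 11.51, 11.41 and 11.50. With Wnt3a the wild-type arrays read 10.10, 10.01 and 9.73 and the knockout arrays 10.67, 10.93 and 11.15. In both media every knockout array lay above every wild-type array, and within the knockout every Wnt3a array lay below every control array. The knockout effect was 1.45 ± 0.12 (log2, SE), or 2.73-fold, in control medium (adjusted p = 2.48e-06, limma) and 0.97 ± 0.12, or 1.96-fold, in Wnt3a medium (adjusted p = 0.000147). Egr1 fell by 0.56 ± 0.12 with Wnt3a in knockout cells (1.47-fold, adjusted p = 0.00561), and in wild-type cells, whose arrays overlap, the difference was -0.08 ± 0.12 (adjusted p = 0.618). The difference between those 2 Wnt3a effects was -0.48 with a 95% interval of -0.85 to -0.11 and did not pass (adjusted p = 0.131).

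Jun had the widest range of the 7 genes: a high level in wild-type control cells, an intermediate one with Wnt3a, and a low one in knockout cells in either medium. Its 3 wild-type control arrays read 9.99, 9.48 and 9.78 and its knockout control arrays 6.52, 6.49 and 6.76 on the probe set that stands for the gene (1417409_at). With Wnt3a the wild-type arrays read 8.97, 8.59 and 8.13 and the knockout arrays 6.73, 6.61 and 6.28. Wild-type arrays lay above all knockout arrays in both media, and the wild-type Wnt3a arrays lay below all wild-type control arrays. Jun fell by 3.16 ± 0.20 in knockout cells in control medium, 8.93-fold (adjusted p = 4.43e-07, limma), which placed it 29th among the falls of the 13811 genes. In Wnt3a medium the fall was 2.02 ± 0.20, 4.05-fold (adjusted p = 2.78e-05). With Wnt3a, Jun was 2.27-fold lower in wild-type cells (-1.19 ± 0.20, adjusted p = 0.000682). In knockout cells the arrays overlapped and the difference was -0.05 with a 95% interval of -0.47 to 0.38 (adjusted p = 0.891). Its sign was positive under both other scalings.

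The second Jun probe set (1448694_at) gave the same picture between genotypes. It read 8.34, 7.89 and 7.81 in wild-type control arrays, 5.51, 5.50 and 5.31 in knockout control arrays, 7.11, 6.75 and 6.74 in wild-type Wnt3a arrays and 5.68, 5.97 and 5.87 in knockout Wnt3a arrays. Its knockout control arrays were all under the floor, so the fall there was at least 5.49-fold (adjusted p = 2.38e-07 over 28483 probe sets, limma), and in Wnt3a medium it was 2.03-fold (adjusted p = 0.000361). The probe sets disagreed on Wnt3a in knockout cells, where the second was higher by 0.40 ± 0.14 (adjusted p = 0.0489) from a group under the floor. That call was lost without wild-type control array 2, any knockout control array, wild-type Wnt3a array 2 or 3, or knockout Wnt3a array 2 or 3 (adjusted p up to 0.162), and without the filter (adjusted p = 0.0532).

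Junb, the family member that often opposes Jun, fell with either change and lowest with both. Wild-type control arrays read 9.75, 9.51 and 9.53, knockout control arrays 9.02, 8.79 and 8.86, wild-type Wnt3a arrays 9.03, 8.76 and 8.55, and knockout Wnt3a arrays 7.60, 7.82 and 8.27. The knockout control and wild-type Wnt3a arrays overlapped, and both groups lay between the other two. Junb was lower in the knockout by 1.63-fold in control medium (-0.71 ± 0.16, adjusted p = 0.00355) and by 1.84-fold in Wnt3a medium (-0.88 ± 0.16, adjusted p = 0.00184). With Wnt3a it was lower by 1.76-fold in wild-type cells (-0.82 ± 0.16, adjusted p = 0.00196) and by 1.98-fold in knockout cells (-0.99 ± 0.16, adjusted p = 0.00124).

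Fos, the founding Fos-family partner of Jun, fell with Wnt3a, and its smaller differences between genotypes did not pass. Its arrays read 9.10, 8.83 and 8.85 in wild-type control cells, 8.78, 8.60 and 8.64 in knockout control cells, 8.46, 8.40 and 8.38 in wild-type cells with Wnt3a, and 7.98, 8.31 and 8.21 in knockout cells with Wnt3a. The 4 groups formed 4 steps that did not overlap. With Wnt3a, Fos was 1.43-fold lower in wild-type cells (-0.51 ± 0.10, adjusted p = 0.00148) and 1.42-fold lower in knockout cells (-0.51 ± 0.10, adjusted p = 0.00302). The knockout effect did not pass in control medium (-0.25 ± 0.10, adjusted p = 0.0512) or in Wnt3a medium (-0.25 ± 0.10, adjusted p = 0.0751). Both lay near the threshold, and the one in control medium passed with the stricter filter (0.0425), the mean of all probe sets (0.0451) or repeated quantile normalization (0.047). Leaving out 1 array could bring either below it. The effect in control medium passed on omission of array 2 of wild-type control (0.0414), array 1 of knockout control (0.0441), or array 1 (0.0268) or 2 (0.0458) of knockout Wnt3a, and that in Wnt3a medium on omission of array 1 of wild-type control (0.0496) or array 2 of knockout Wnt3a (0.0486).

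Fosl1 encodes Fra-1, a Fos-family protein without the transactivation domain of Fos, and was the dimmest member. On its brighter probe set (1417487_at) it read 7.18, 7.40 and 7.32 in wild-type control arrays, 5.93, 5.96 and 5.96 in knockout control arrays, 6.13, 6.20 and 6.18 in wild-type Wnt3a arrays and 5.49, 5.47 and 5.13 in knockout Wnt3a arrays, the last all under the floor. No 2 groups overlapped. Fosl1 was 2.55-fold lower in the knockout in control medium (-1.35 ± 0.09, adjusted p = 6.71e-07) and at least 1.53-fold lower in Wnt3a medium (adjusted p = 8.34e-05). With Wnt3a it was 2.19-fold lower in wild-type cells (-1.13 ± 0.09, adjusted p = 9.07e-06) and at least 1.31-fold lower in knockout cells (adjusted p = 0.00101).

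Fosl1's second probe set (1417488_at) was dimmer and agreed only in part. It read 6.34, 6.69 and 6.62, then 5.32, 5.68 and 5.56, then 6.09, 5.80 and 6.32, then 5.62, 5.99 and 5.48 in wild-type control, knockout control, wild-type Wnt3a and knockout Wnt3a arrays. It was at least 1.99-fold lower in the knockout in control medium (adjusted p = 0.000302). In Wnt3a medium the knockout effect was -0.37 ± 0.16 and did not pass (adjusted p = 0.114, or 0.0447 without knockout Wnt3a array 2). Wnt3a gave -0.48 ± 0.16 in wild-type cells (adjusted p = 0.0283, lost with median centring, repeated quantile normalization, or without wild-type control array 2 or 3 or wild-type Wnt3a array 1 or 2) and 0.18 ± 0.16 in knockout cells (adjusted p = 0.436). With both probe sets averaged, the Wnt3a effect on Fosl1 in knockout cells was -0.20 and did not pass (adjusted p = 0.192).

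Btg2 encodes an antiproliferative protein that recruits the CCR4-NOT deadenylase. It differed between genotypes, while its differences between media did not pass. Its brighter probe set (1416250_at) read 10.31, 9.96 and 10.02 in wild-type control arrays, 9.43, 9.36 and 9.26 in knockout control arrays, 10.09, 9.99 and 10.17 in wild-type Wnt3a arrays and 9.34, 9.56 and 9.76 in knockout Wnt3a arrays. Knockout arrays lay below all wild-type arrays in both media, and within each genotype the media overlapped. The knockout effect was -0.75 ± 0.11 in control medium (1.68-fold lower, adjusted p = 0.00023) and -0.53 ± 0.11 in Wnt3a medium (1.44-fold lower, adjusted p = 0.00474). The Wnt3a effect was -0.01 ± 0.11 in wild-type cells, with a 95% interval of -0.26 to 0.23 (adjusted p = 0.938) and a positive sign with median centring. In knockout cells it was 0.20 ± 0.11, with a 95% interval of -0.04 to 0.45 (adjusted p = 0.2, limma). The second probe set (1448272_at) was 1.42-fold lower in the knockout in control medium (adjusted p = 0.00288) and gave -0.30 ± 0.11 in Wnt3a medium, which did not pass (adjusted p = 0.0657, but 0.0466 without knockout control array 1 and 0.0488 without knockout Wnt3a array 3).

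Ier2, a nuclear protein named for its immediate-early induction, was the member with the smallest differences. Its arrays read 11.74, 12.06 and 11.91 in wild-type control cells, 11.84, 11.64 and 11.87 in knockout control cells, 11.82, 11.71 and 11.76 in wild-type Wnt3a cells and 11.56, 11.67 and 11.67 in knockout Wnt3a cells. Between genotypes within a medium and between media within a genotype, the arrays overlapped except for the genotypes in Wnt3a medium. The 4 differences ran from -0.15 to -0.13, each with an SE of 0.09, and none passed (adjusted p from 0.224 to 0.3). With repeated quantile normalization both Wnt3a differences did (-0.27 with adjusted p = 0.0151 in wild-type cells, -0.25 with adjusted p = 0.0306 in knockout cells). With the genotype effect in control medium bounded by a 95% interval of -0.32 to 0.07, a change as large as that of Junb lies outside it.

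**Figure D1:**
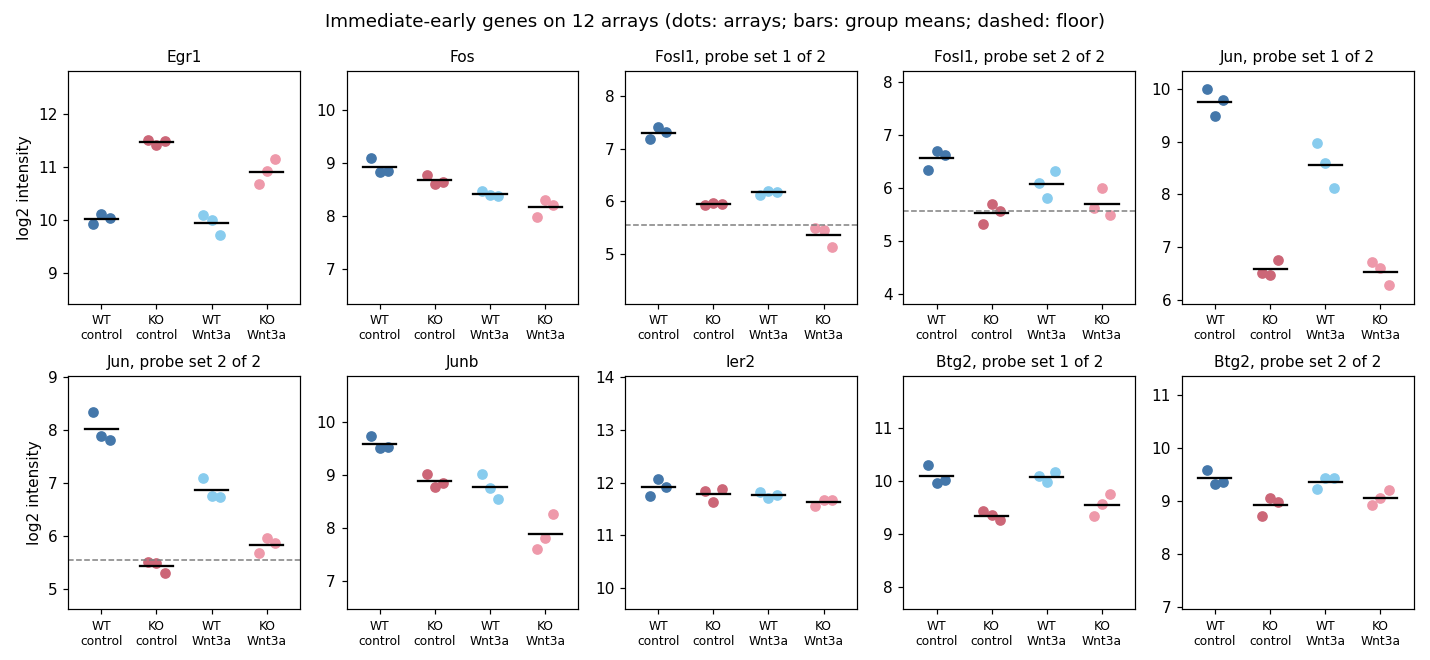
The log2 intensity of each of the 10 probe sets is plotted for the 12 arrays in 4 groups (dots are arrays, bars are group means, and the dashed line is the floor of 5.56). Jun drops from a mean of 9.75 in wild-type control cells to 6.59 in knockout control cells, Egr1 climbs from 10.03 to 11.48, and Ier2 stays between 11.63 and 11.91.

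Across the 7 genes, the knockout raised 1 (Egr1) and lowered 4 (Jun, Fosl1, Junb and Btg2) in control medium, with 19.9% of all genes called higher and 22.3% called lower. In Wnt3a medium the count was again 1 higher and 4 lower, against 13.2% and 14.7% of all genes. In wild-type cells none was higher with Wnt3a and 4 were lower (Jun, Fosl1, Junb and Fos), against 18.9% and 22.6% of all genes. In knockout cells none was higher with Wnt3a and 4 were lower (Egr1, Fosl1, Junb and Fos), against 13.3% and 14.7%. As given above, Wnt3a and the handling of the arrays cannot be told apart in these differences. The members' median differences were -0.71, -0.53, -0.51 and -0.51 in those 4 comparisons, where the medians over all genes were 0.01, 0.01, -0.02 and -0.01. Over probe sets, the shares called in either direction were 36.2% and 24% for the knockout effect in control and Wnt3a medium, 42.5% and 30.9% for Wnt3a in wild-type and knockout cells, and 3.58% for the interaction. Scaling moved the balance of calls over all genes in the Wnt3a comparisons, from 45.6% of calls higher to 61.5% with median centring in wild-type cells and from 47.5% to 66.3% in knockout cells, with all member calls in those comparisons kept. The comparisons in 1 genotype or 1 medium share arrays and are not independent of each other.

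**Figure D2:**
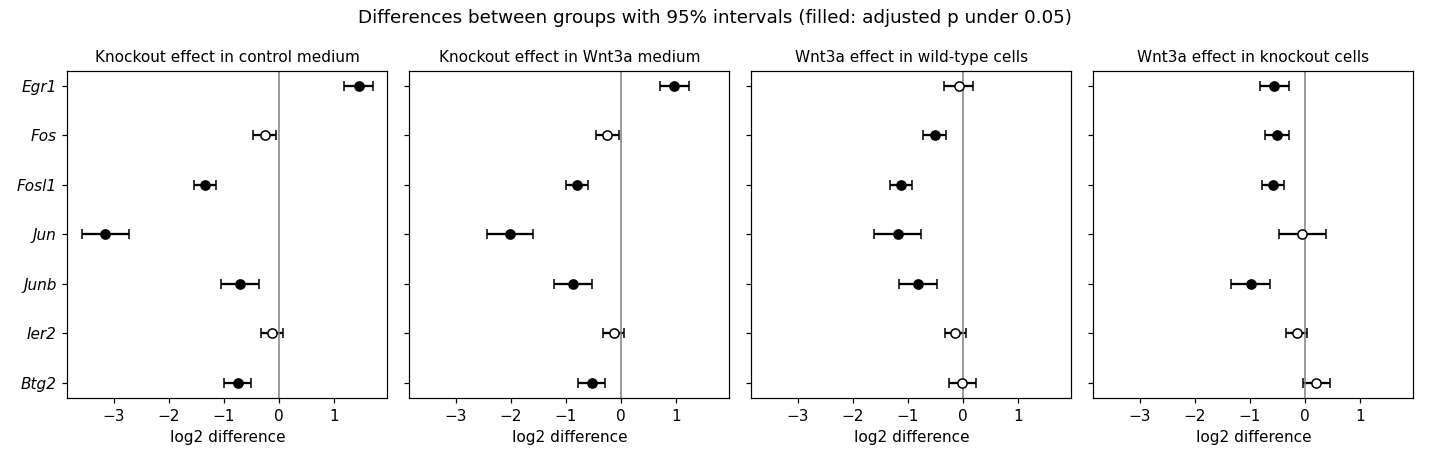
Differences between groups (log2, with 95% intervals) are plotted for each member in the 2 knockout effects and the 2 Wnt3a effects, filled where the adjusted p was under 0.05. Jun has the longest fall (-3.16 in control medium), Egr1 alone lies to the right of 0 for the knockout effect (1.45), and the 4 Ier2 intervals cross 0.

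The interaction was called for Jun and Fosl1 and was positive for both, meaning a smaller measured fall with Wnt3a in knockout cells. For Jun the interaction was 1.14 ± 0.28 (95% interval 0.54 to 1.74, adjusted p = 0.0434, limma) and for Fosl1 it was 0.55 ± 0.13 (0.26 to 0.83, adjusted p = 0.0401). Over all genes 2.2% were called higher and 1.88% lower for the interaction. The second Jun probe set gave 1.55 ± 0.20 (adjusted p = 0.00388), but its knockout control arrays were all under the floor, so the knockout part of that value is measured against background. Calls on the gene-level values were close to the threshold: the Jun call was lost in 9 of 12 runs that left out 1 array, with adjusted p up to 0.106 (without any of the wild-type control arrays 1 or 3, the knockout control arrays, the wild-type Wnt3a arrays 2 or 3, or the knockout Wnt3a arrays 1 or 2), and the Fosl1 call in 10 of 12, with adjusted p up to 0.102 (all but wild-type Wnt3a array 1 and knockout Wnt3a array 3). The Fosl1 call was also lost with the mean of its probe sets (adjusted p = 0.0512). Because knockout Fosl1 with Wnt3a lay under the floor, its fall there has only a bound and may not be smaller than in wild-type cells. Jun's brighter probe set had knockout means of 6.59 in control medium and 6.54 with Wnt3a. Both were above the floor of 5.56 but nearer to it than the wild-type means.

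The order of the 4 groups differed between members. Egr1 ran from knockout control through knockout Wnt3a to wild-type control and wild-type Wnt3a, the last pair not separated (adjusted p = 0.618). Jun ran from wild-type control to wild-type Wnt3a to the 2 knockout groups, which were not separated, and the step from wild-type Wnt3a to knockout control was 3.93-fold (adjusted p = 1.76e-05). Fosl1 and Junb shared an order with wild-type control highest and knockout Wnt3a lowest, and the 2 middle groups were not separated for Fosl1 (0.22, adjusted p = 0.0677) or Junb (-0.11 for wild-type Wnt3a minus knockout control, adjusted p = 0.601). For Fosl1 that difference did pass without knockout Wnt3a array 3 (0.0163), with the mean of probe sets (0.0141), median centring (0.0243), repeated quantile normalization (0.0186) or only the arrays compared (0.0183), and on the second probe set, where it was 0.55 (adjusted p = 0.0149, lost without knockout control array 1 or wild-type Wnt3a array 3). The Fos steps were 0.25, 0.26 and 0.25, of which only the middle one passed (adjusted p = 0.045), and it was lost in 8 of 12 runs that left out 1 array, the exceptions being wild-type control arrays 1 and 2 and knockout Wnt3a arrays 1 and 2 (adjusted p up to 0.147). It was also lost with median centring (0.121) and without the filter (0.0514). Over all genes 44.4% were called in either direction between wild-type cells with Wnt3a and knockout cells in control medium. With both changes together, knockout Wnt3a against wild-type control, all 7 members were called, 6 lower and Egr1 higher, where 56% of all genes were called in either direction. With median centring the share of calls that were higher moved from 50.3% to 61.9% and from 47.5% to 58.6% in these 2 comparisons. Here Junb was 3.24-fold lower (-1.69, adjusted p = 3.77e-06), Fos 1.7-fold lower (-0.76, adjusted p = 3.69e-05), and Ier2 1.21-fold lower (-0.27, adjusted p = 0.0202), although none of the 4 differences of Ier2 along a single change passed. The Ier2 call was lost without wild-type control array 2 (0.0855) or 3 (0.0541) or knockout Wnt3a array 1 (0.0666), and with median centring (0.102).

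Genes whose pattern over the 12 arrays came closest to each member were found by the root-mean-square difference (RMS, log2) after each gene's own mean was subtracted. Nearest to Jun were Cdk14 (0.138), Setd7 (0.179) and Synpo2l (0.203), and to Fosl1 Dcaf12l1 (0.145), Creb3 (0.181) and Slc23a1 (0.181). Nearest to Junb were Cited2 (0.167), Acsl5 (0.189) and Parp12 (0.201), of which Cited2, which binds the coactivators CBP and p300, is in the list of other immediate-early genes. Nearest to Egr1 were Slc4a5 (0.159), Slc37a1 (0.182) and Snap91 (0.187), to Fos Pfn1 (0.0749), Plagl2 (0.0836) and Epb41l1 (0.0931), and to Btg2 Anxa6 (0.0814), Rnpepl1 (0.0855) and Tjp1 (0.101). Ier2 was left out because its group means spanned 0.27, below the set minimum of 0.5.

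Over all genes tested, 19.9% rose and 22.3% fell in knockout control cells, and 13.2% and 14.7% in Wnt3a medium. With Wnt3a, 18.9% rose and 22.6% fell in wild-type cells, and 13.3% and 14.7% in knockout cells. Those shares belong beside each list count here and below. Among other immediate-early genes, too, more fell than rose in both knockout effects and both Wnt3a effects. Of 37 tested, 4 rose and 21 fell in knockout control cells (median -0.57), 2 rose and 21 fell in Wnt3a medium (-0.4), 3 rose and 19 fell with Wnt3a in wild-type cells (-0.43), and 4 rose and 13 fell with Wnt3a in knockout cells (-0.18). The largest falls in knockout control cells were those of Ier5 (5.04-fold, adjusted p = 7.28e-07), the matricellular gene Ccn1 (4.81-fold), the zinc finger factor Klf6 (4.07-fold) and the kinase Plk2 (3.62-fold). Klf4, a pluripotency factor that is also serum-inducible, went the other way and, named for knockout control cells after its values were seen, was 2.44-fold higher in knockout control cells (adjusted p = 2.32e-06) and 3.07-fold higher with Wnt3a in wild-type cells (adjusted p = 1.88e-06). Zfp36, which promotes decay of AU-rich mRNAs, was 2.19-fold lower with Wnt3a in wild-type cells (adjusted p = 4.13e-05) and 1.9-fold lower in knockout cells (adjusted p = 0.00033). The other risers, also named after their values were seen, were Zfp36l1, Sgk1 and Klf10 in knockout control cells and Sgk1 and Zfp36l1 with Wnt3a in wild-type cells. In Wnt3a medium Arc and Klf10 were higher in the knockout. With Wnt3a in knockout cells Klf4, Sgk1, Zfp36l1 and Klf6 were higher. Klf6 was 1.62-fold higher there (adjusted p = 0.0136, limma), with 1 of its 4 probe sets called. Sik1, a kinase that restrains CREB coactivators, was 1.95-fold lower with Wnt3a in knockout cells (adjusted p = 7.93e-05). For the interaction 1 gene was called higher and 1 lower. These were Rhob (0.59, adjusted p = 0.0235, lost in 6 of 12 runs without 1 array) and Klf4 (-1.15, adjusted p = 0.00427, kept in all 12). Egr2 did not pass the filter.

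**Figure D3:**
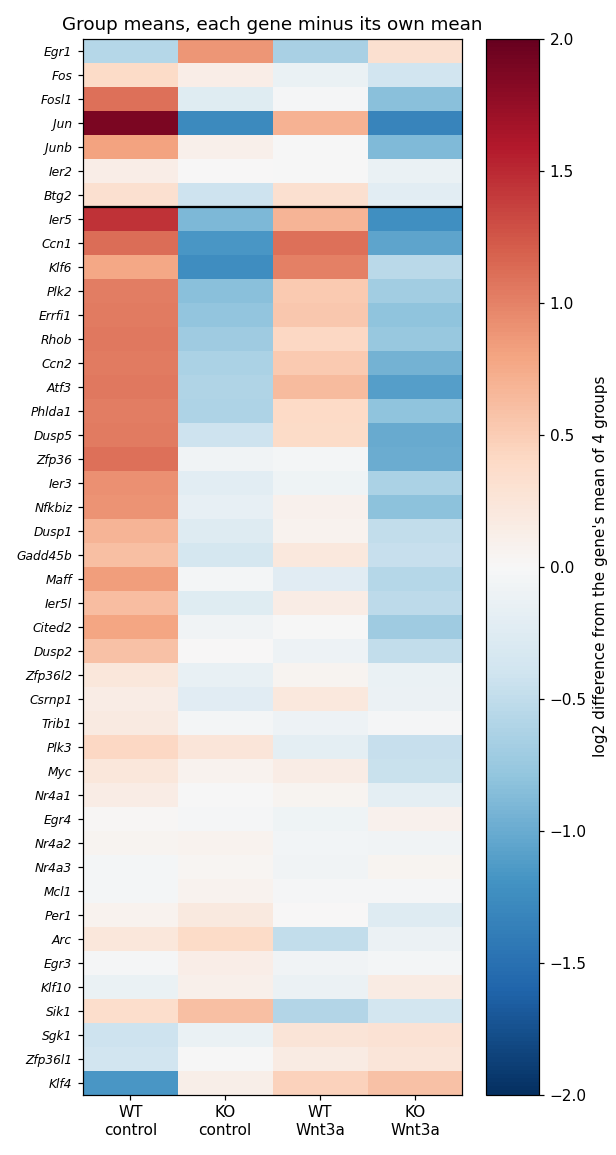
Group means of the members and of other immediate-early genes are shown as the log2 difference from each gene's own mean of the 4 groups, in 1 column per group. Jun, Junb and Fosl1 are among the rows that are highest in wild-type control cells, while Egr1 and Klf4 are among those that are low there.

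The rest of the AP-1 family, like all genes by the shares above, was lower more often than higher in 4 of 4 pairwise comparisons. For Wnt3a in knockout cells median centring turned the family's counts to 3 higher and 2 lower. Of 13 tested, 1 rose and 9 fell in knockout control cells (median -0.35), 0 rose and 6 fell in knockout cells with Wnt3a (-0.18), 2 rose and 7 fell with Wnt3a in wild-type cells (-0.35), and 2 rose and 5 fell with Wnt3a in knockout cells (-0.13). Atf3, a stress-induced repressor, was 3.15-fold lower in knockout control cells (adjusted p = 0.000632), and Jdp2, a Jun dimerization partner, 2.52-fold lower (adjusted p = 0.000891). Maff, a small Maf protein, was 2.09-fold lower with Wnt3a in wild-type cells (adjusted p = 5.03e-05) and 1.45-fold lower in knockout cells (adjusted p = 0.00597). Fosb did not pass the filter.

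Of 23 tested genes known as AP-1 targets, 2 rose and 15 fell in knockout control cells (median -0.68), 1 rose and 13 fell in Wnt3a medium (-0.54), 1 rose and 14 fell with Wnt3a in wild-type cells (-0.4), and 2 rose and 6 fell with Wnt3a in knockout cells (-0.06). The receptor kinase Axl was 6.93-fold lower in knockout control cells (adjusted p = 5.97e-07), the annexin Anxa1 6.2-fold lower (adjusted p = 1.06e-06), and the hyaluronan receptor Cd44 at least 2.82-fold lower (adjusted p = 7.03e-07). The risers in knockout control cells were Lgals3 (2.28-fold, adjusted p = 8.53e-06), which encodes galectin-3, and Vim, both named after their values were seen. Plaur, the urokinase receptor, was 2.07-fold lower with Wnt3a in wild-type cells (adjusted p = 7.25e-05) and 1.91-fold lower in knockout cells (adjusted p = 0.000368). Of the 23, Cd44 was the only gene called for the interaction (1.51, adjusted p = 0.00502), but both its knockout groups were under the floor, so that value has no exact size. The list's genes are also expressed in other cell types, including trophoblast cells, whose marker sums are given above. Mmp3, Mmp10 and Mmp13 did not pass the filter.

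Among genes that act upstream of the members, the ETS factor Ets1 had the largest called fall. Of 17 SRF, ETS and CREB factors and cofactors, 1 rose and 8 fell in knockout control cells (median -0.22), 2 rose and 5 fell in Wnt3a medium (-0.2), 1 rose and 7 fell with Wnt3a in wild-type cells (-0.11), and 0 rose and 3 fell with Wnt3a in knockout cells (-0.12). It was 5.73-fold lower in knockout control cells (adjusted p = 1.91e-06), and the ternary complex factor Elk3 2.58-fold lower (adjusted p = 7.22e-05). Srf, the factor that binds CArG boxes, was 1.62-fold lower with Wnt3a in wild-type cells (adjusted p = 0.000154). Of 20 genes of the ERK, JNK and p38 cascade, 2 rose and 7 fell in knockout control cells (median -0.1), 1 and 4 in Wnt3a medium (-0.14), 2 and 4 with Wnt3a in wild-type cells (-0.08), and 1 and 3 with Wnt3a in knockout cells (0.00), and with median centring the Wnt3a counts became 3 and 2 in wild-type and 2 and 0 in knockout cells. The exchange factor Sos2 was 3.1-fold lower (adjusted p = 1.46e-06) and the p38 target kinase Mapkapk2 2.78-fold lower (adjusted p = 1.9e-06) in knockout control cells. The other 9 genes of that list were not analysed here.

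ERK feedback genes did not move one way. Of 13 tested, 3 rose and 6 fell in knockout control cells (median -0.19), 2 rose and 8 fell in Wnt3a medium (-0.42), 4 rose and 4 fell with Wnt3a in wild-type cells (0.09), and 1 rose and 3 fell with Wnt3a in knockout cells (-0.02). The ERK phosphatase genes Dusp4 and Dusp6 were 5.64-fold (adjusted p = 4.53e-07) and 2.21-fold lower (adjusted p = 2.27e-06) in knockout control cells, and Spry4, a Sprouty inhibitor, was 2.15-fold higher (adjusted p = 1e-05). Of 8 Egr corepressors and Btg/Tob genes, 1 rose and 4 fell in knockout control cells, 2 and 2 in Wnt3a medium, 1 and 1 with Wnt3a in wild-type cells, and 1 and 2 in knockout cells. With all probe sets averaged, the counts in knockout control cells were 2 and 1. On the brightest probe sets the riser there was Nab2, an Egr1 corepressor that is itself an Egr1 target, 2.11-fold higher (adjusted p = 5.58e-05). The risers in the knockout in Wnt3a medium were Nab1 (1.49-fold, adjusted p = 0.0223, limma) and Nab2 (1.47-fold, adjusted p = 0.0102). Heat shock genes were taken as a separate stress-response group. Of 12 tested, 0 rose and 4 fell in knockout control cells (median 0.02), 0 and 1 in Wnt3a medium, 0 and 3 with Wnt3a in wild-type cells, and 0 and 1 in knockout cells. The largest fall among them in knockout control cells was that of the inducible chaperone gene Hspa1b, 2.16-fold (adjusted p = 0.00137), which also fell 1.84-fold with Wnt3a in wild-type cells (adjusted p = 0.00731); its signal is uncertain because Hspa1a is a near-identical copy.

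Several of these sizes depend on the probe set that stood for the gene. With all probe sets averaged, the knockout effect in control medium was -1.21 for Ier5, -0.86 for Plk2, -0.62 for Jdp2, -0.49 for Elk3, -1.75 for Ets1, -1.37 for Axl, -1.31 for Anxa1 and -1.28 for Cd44 on the log2 scale, and each still passed. The Wnt3a effect on Sik1 in knockout cells was -0.40 by the same average, against -0.97 on its brightest probe set, and passed on both (adjusted p = 0.000848 for the average). The Cd44 interaction was 0.82 by the same average (adjusted p = 0.00792).

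**Figure D4:**
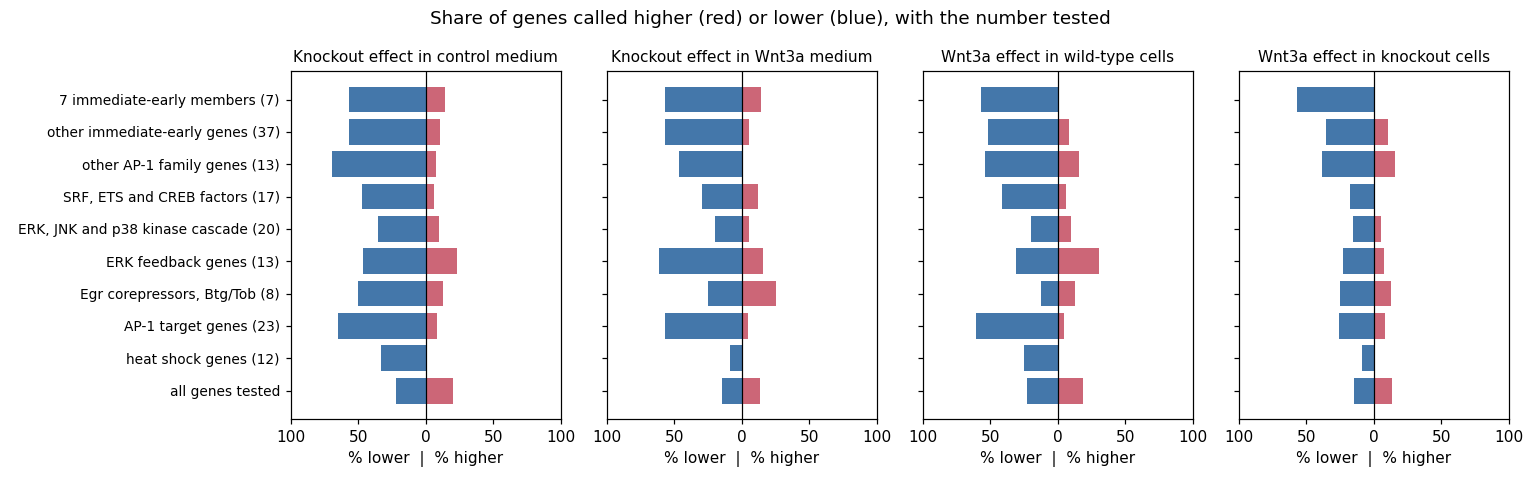
The share of tested genes called higher (red) or lower (blue) is plotted for the members, the related lists and all genes in each comparison, with the number tested. All genes tested, like the members, the other immediate-early genes and the AP-1 targets, have more lower than higher in every pairwise comparison. ERK feedback genes have 4 of each with Wnt3a in wild-type cells.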

How the data were processed

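Per the submitters' processing notes the values were made with RMA, with no version named. The authors deposited intensity values on a linear scale for 45101 probe sets on 12 arrays (9.26 to 35984), and log2 was taken with no pseudocount. Of the probe sets, 64 were controls, 34945 carried 1 gene symbol, 932 several and 9160 none. Symbols were updated through Entrez identifiers (18032 of 18194 found) in the RefSeq table of GRCm38.p6. A gene was represented by its brightest probe set and kept where 3 or more arrays exceeded the 40th percentile of values, which left 13811 of 18193 genes. Groups were fitted over all 12 arrays with limma 3.58.1 in R 4.3.3 (lmFit, eBayes), with Benjamini-Hochberg adjustment and a threshold of 0.05. A second fit took 28483 probe sets. Precision is limited by having 3 arrays in each group, and the median SE was 0.0886. Arrays of a group correlated from 0.995 to 0.998, and these correlations cannot tell whether arrays share an RNA sample or a culture. The fit was tested on simulated data.

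The labels number the replicates 1 to 3 in each group. Same-numbered arrays deviated together with correlations of -0.26 to 0.24, and the main fit has no block. With 3 arrays in a group, these correlations cannot show whether the numbers pair the arrays. Alternatives were no filter, a stricter filter (60th percentile), the mean of all probe sets, median centring, repeated quantile normalization, only the arrays compared, an eBayes trend, a replicate block and leaving out each array. The members and the gene lists were chosen with earlier results of these data known, so they lend no independent support. Genes named from a list were the up to 4 called with the largest change per comparison and the largest that did not pass, and not all are printed. Likeness took the 3 nearest genes for members whose group means spanned at least 0.5. Lists of related genes were described by counts and medians, with no set test.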

Additional observations from a re-analysis of the deposited data

Results flagged for a closer look

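The response of Jun to Wnt3a differed between the genotypes by the test of the difference itself, with an interaction of 1.14 on the log2 scale (adjusted p = 0.0434, limma) from a fall in wild-type arrays and overlapping arrays in knockout cells. The interaction of Fosl1, 0.55 (adjusted p = 0.0401, limma), was picked out in the same way. Both calls were close to the threshold and were lost in most runs that left out 1 array. On the probe set used, Fosl1 was under the floor on all knockout Wnt3a arrays. Knockout Jun means were 6.59 in control medium and 6.54 with Wnt3a, nearer the floor of 5.56 than its wild-type means. Whether that level limits a fall in knockout cells was not tested. A bacterial control sequence that is no part of the comparisons, the dap poly-A control, was 7.52 higher on the log2 scale on Wnt3a arrays than on control-medium arrays, and its part in the Wnt3a effects of the members was not tested.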

How the results depend on the processing

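Of 693 values of the 7 genes under alternatives, 638 kept their direction and their side of the threshold, 22 lost a call, 11 gained one and 22 changed sign. The knockout effects of Egr1, Jun, Fosl1, Junb and Btg2 and the Wnt3a effects of Fos, Junb, Jun (wild type), Fosl1 (wild type) and Egr1 (knockout) kept their calls under every alternative run, while the Wnt3a effect on Fosl1 in knockout cells was lost with the mean of its probe sets. For the interaction, 1 member instead of 2 was called higher on averaging all of a gene's probe sets, and 0 to 2 when 1 array was left out. All genes called for the interaction ran from 151 to 952 without 1 array (563 with all), lowest without wild-type control array 3 and highest without wild-type Wnt3a array 1, and for Wnt3a in knockout cells from 2393 (without knockout control array 3) to 4011. The cause was not tested. Of 2376 counts of list genes under alternatives, 2033 were within 1.5 times of the count reported.

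The labels do not say whether the replicate numbers pair the arrays. With a replicate block 1 member was called higher for the interaction (Fosl1 had an adjusted p of 0.0563, limma), and all genes called for it went from 563 to 394. The block changed no other member's call in the knockout and Wnt3a comparisons, and the Fos difference between wild type with Wnt3a and knockout control no longer passed (adjusted p = 0.0668).

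No value that changed sign was called. The interaction of Fos was -0.0033 with median centring and -0.0809 to 0.0998 without 1 array, and that of Ier2 was 0.0205 with repeated quantile normalization and -0.0853 to 0.0763 without 1 array. The Wnt3a effect on Jun in knockout cells was 0.179 with the mean of probe sets (adjusted p = 0.386, limma), 0.0176 with median centring, 0.0267 with quantile normalization and -0.139 to 0.0848 without 1 array. With Wnt3a in wild-type cells Btg2 was 0.0593 with median centring and -0.0807 to 0.0930 without 1 array, its second probe set 0.0082 and -0.116 to 0.0197, and Egr1 -0.156 to 0.0286 without 1 array. Wild type with Wnt3a minus knockout control was 0.0417 for Ier2 with median centring, -0.0877 to 0.0293 without 1 array, and -0.235 to 0.0059 for Junb without 1 array. With 3 arrays per group, the spread between arrays and, for Fosl1, a level near the floor limit all of these.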
